A study of Mus musculus with 18 samples.

Results

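The Hsd3b genes encode the 3-beta-hydroxysteroid dehydrogenase family. The 7 mouse members examined, Hsd3b1 to Hsd3b7, were chosen by the gene symbol of the platform annotation, and each gene was represented by the probe set with the brightest mean over 18 arrays. The array carried 8 probe sets that name a member. Of these, 6 named 1 gene and 2 named several, so that 5 members had a probe set of their own. After a filter on dim probe sets 4 members (Hsd3b2, Hsd3b3, Hsd3b5 and Hsd3b7) were among the 14694 genes tested. Hsd3b1 failed the filter, and Hsd3b4 and Hsd3b6 were read only by probe sets shared with other genes. The family was chosen because of the low Hsd3b5 values on a high-fat diet in these same arrays. The Hsd3b5 values on HFD are therefore given as a description, with no test.

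Total liver RNA came from C57BL/6 mice of either the AIM-/- genotype (AIM-KO) or the AIM+/+ genotype (WT). AIM, the apoptosis inhibitor of macrophage, is a secreted protein encoded by Cd5l. Both genotypes had normal chow (0 weeks of high-fat diet, HFD), HFD for 12 weeks or HFD for 20 weeks, with 3 arrays in each of the 6 groups. The labels give no age and no sex, so time on diet cannot be told apart from age. The replicates are described as biological, without a statement on whether 1 animal gave 1 sample, so p-values measure the spread between these samples. Cd5l read 4.0 to 23.5 on the 9 AIM-KO arrays and 702.6 to 1926.8 on the 9 WT arrays. Median intensities per array ranged from 15.0 to 21.1, and arrays of 1 group correlated at 0.942 to 0.974. Xist, the RNA of X inactivation in females, read 2921.6 to 3049.7 on 4 arrays, namely the 3 AIM-KO arrays at 20 weeks and WT 20 weeks replicate 2. The other 14 arrays read 7.8 to 26.2. The Y-linked gene Eif2s3y read 3.9 to 7.3 on those 4 arrays and 498.4 to 675.1 on the others. The 12 and 20 week comparisons within a genotype share its chow arrays. The AIM-KO 20 week group differs in Xist state from all AIM-KO chow arrays and from 2 of the 3 WT arrays at 20 weeks, and time on diet and Xist state cannot be told apart within AIM-KO.

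Most 3-beta-hydroxysteroid dehydrogenases oxidise the 3-hydroxyl group of a steroid and move its double bond, a step shared by the synthesis of progesterone, corticosteroids and androgens. In mice, Hsd3b1 is known from the adrenal gland and gonads and Hsd3b6 from the adrenal gland, placenta and skin, while Hsd3b2 and Hsd3b3 are expressed in liver and kidney. Mouse Hsd3b4 and Hsd3b5 act as 3-ketosteroid reductases, which inactivate androgens. Hsd3b5 is a liver gene with much higher expression in males, under the control of the growth hormone pattern. Hsd3b7 is a distant relative that acts on oxysterol-derived precursors in bile acid synthesis.

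In the RefSeq gene order, 6 of the members lie together on chromosome 3 within a stretch of 13 genes, and Hsd3b7 lies on chromosome 7. The promoter windows of Hsd3b5, Hsd3b3 and Hsd3b2 are shown because these members carry the results that follow, and that of Hsd3b7 as the tested member with no called change. Each is the 250 bases before the first listed start in RefSeq (build GRCm38.p6), written on the gene's own strand. In the Hsd3b5 window (chr3:98645535-98645784, minus strand) and the Hsd3b3 window (chr3:98763129-98763378, minus strand), capitals mark the 2 runs of at least 10 bases that are identical in both.
Hsd3b5: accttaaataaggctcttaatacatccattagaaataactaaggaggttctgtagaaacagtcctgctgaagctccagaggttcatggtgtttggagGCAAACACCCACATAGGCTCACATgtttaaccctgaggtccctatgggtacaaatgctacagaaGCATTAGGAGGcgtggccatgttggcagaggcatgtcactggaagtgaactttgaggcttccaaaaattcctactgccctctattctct
Hsd3b3: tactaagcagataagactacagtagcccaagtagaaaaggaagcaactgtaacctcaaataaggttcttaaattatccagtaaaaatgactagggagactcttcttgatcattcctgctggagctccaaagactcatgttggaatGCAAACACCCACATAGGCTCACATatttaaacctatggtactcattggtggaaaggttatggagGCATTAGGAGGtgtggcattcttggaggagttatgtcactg
The Hsd3b5 and Hsd3b3 windows were identical at 151 of 202 aligned positions (74.8% of their overlap), against 44.6% to 51.4% in the other 20 pairs of members. The longer shared run has 24 bases. It begins at position -153 from the start in Hsd3b5 and at -105 in Hsd3b3.

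In the windows of Hsd3b2 (chr3:98724544-98724793, minus strand) and Hsd3b7 (chr7:127800359-127800608, plus strand), capitals mark matches to the motifs that were searched on both strands.
Hsd3b2: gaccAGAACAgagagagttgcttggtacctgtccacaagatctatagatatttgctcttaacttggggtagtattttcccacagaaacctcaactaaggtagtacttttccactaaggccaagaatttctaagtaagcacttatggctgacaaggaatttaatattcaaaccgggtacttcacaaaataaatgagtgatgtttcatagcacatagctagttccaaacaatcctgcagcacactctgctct
Hsd3b7: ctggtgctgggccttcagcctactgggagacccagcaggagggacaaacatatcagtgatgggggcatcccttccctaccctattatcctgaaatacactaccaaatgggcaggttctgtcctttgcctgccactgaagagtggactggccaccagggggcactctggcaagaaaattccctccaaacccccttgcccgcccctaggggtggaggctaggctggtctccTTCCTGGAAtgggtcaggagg
The Hsd3b2 window holds the half-site AGAACA of glucocorticoid and androgen receptors, at position -246, a motif found in 16.1% of 32851 promoter windows of this length. The Hsd3b7 window holds a match to the STAT5 motif TTCNNNGAA at position -21, which 7.02% of promoter windows have. The HNF6 motif ATTGAT (6.72% of windows) and the nuclear receptor half-site AGGTCA (14.0% of windows) were also searched, and no match to any of the 4 motifs lies in the Hsd3b5 or Hsd3b3 window. These are matches of letters within a short window.

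Hsd3b5, the male-biased 3-ketosteroid reductase, was bright on chow and near the floor of the arrays after 20 weeks of HFD in both genotypes. In AIM-KO livers its intensity on chow was 1448.8, 2571.8 and 807.6, at 12 weeks 0.4, 1.1 and 0.5, and at 20 weeks 0.4, 3.6 and 1.2. In WT livers it was 2787.3, 2795.7 and 2660.1 on chow, 1.6, 293.8 and 97.2 at 12 weeks, and 0.5, 0.3 and 1.5 at 20 weeks. No HFD array reached the lowest chow array in either genotype. All AIM-KO arrays at 20 weeks and WT 20 weeks replicate 2 were Xist-high, and no 12 week array was. For this male-biased gene, diet and Xist state cannot be told apart in the AIM-KO change at 20 weeks. At 12 weeks all 3 AIM-KO arrays and 1 WT array were under their 40th percentile of intensity, and the other 2 WT arrays were above it. The gene passed the filter through 8 arrays, the 6 on chow and 2 of the WT arrays at 12 weeks, and so had to differ between diets.

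On the log2(intensity + 3.3) scale the Hsd3b5 difference from chow in AIM-KO livers was -8.52 ± 0.88 at 12 weeks and -8.22 ± 0.88 at 20 weeks (SE, n = 3 arrays a group). In WT livers it was -5.71 ± 0.88 at 12 weeks and -9.41 ± 0.88 at 20 weeks. Levels near the floor are only bounds. Taking each array's 40th percentile as the floor, Hsd3b5 was at least 133-fold lower at 12 weeks and at least 128-fold lower at 20 weeks in AIM-KO livers, and at least 255-fold lower at 20 weeks in WT livers. The AIM-KO change at 20 weeks compares Xist-high arrays with chow arrays that were not Xist-high. The size of these log2 differences depends on the pseudocount. At 20 weeks in WT livers, for example, it was -7.63 with a pseudocount of 13.2 and -10.83 with 0.825 in its place.

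**Figure D1:**
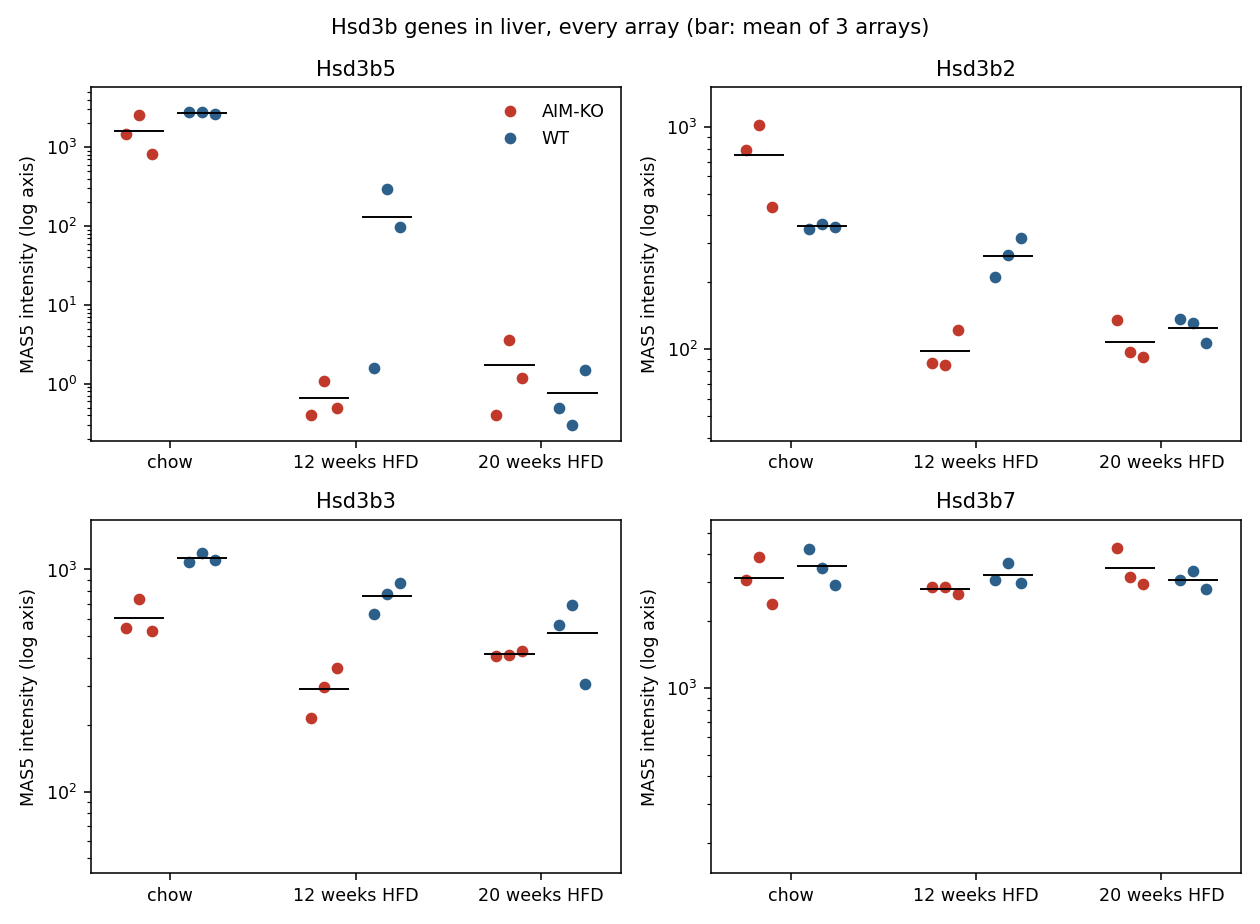
MAS5 intensity (log axis, arbitrary units) of Hsd3b5, Hsd3b2, Hsd3b3 and Hsd3b7 on each array by diet, with AIM-KO in red and WT in blue, 3 arrays a group, and a bar at the group mean. Hsd3b5 lies between 807.6 and 2795.7 on all chow arrays and at 3.6 or less on all 20 week arrays, while Hsd3b7 stays between 2400.8 and 4271.3 on all 18 arrays. All AIM-KO arrays and WT replicate 2 at 20 weeks are Xist-high.

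Between the genotypes, a test of Hsd3b5 is given only for chow, where it was bright in both. The change there was -0.93 ± 0.88 (AIM-KO over WT) and did not pass the test (limma, adjusted p = 0.87), although the 3 AIM-KO arrays all lay below the 3 WT arrays. The SE is pooled over all 6 groups. The spread of the HFD arrays, such as 1.6, 97.2 and 293.8 in WT livers at 12 weeks, therefore enters this test. Over 11 other settings, among them a fit of only the groups compared, the adjusted p was 0.82 to 0.9 (limma). At 12 weeks the probe set was above the 40th percentile on 0 of 3 AIM-KO arrays and on 2 of 3 WT arrays, and at 20 weeks on none of either genotype. Values under it have no order among themselves, and the HFD values belong to the diet response that chose the family, so no test between the genotypes is given on HFD.

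Hsd3b2, one of the dehydrogenase-isomerases, was high on chow and lower on HFD in both genotypes, and its 12 week diet effect differed between them by the test of the difference. In AIM-KO livers it read 791.2, 1026.3 and 436.4 on chow, 86.8, 85.0 and 121.6 at 12 weeks, and 135.1, 97.6 and 91.8 at 20 weeks. The WT livers read 348.8, 367.5 and 355.9 on chow, 210.4, 265.0 and 316.4 at 12 weeks, and 137.0, 130.7 and 106.8 at 20 weeks. On chow every AIM-KO array was above every WT array. At 12 weeks the order was turned round, with every AIM-KO array below every WT array, and at 20 weeks the genotypes overlapped.

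In AIM-KO livers Hsd3b2 fell by 2.83 ± 0.24 on the log2 scale at 12 weeks (limma, adjusted p = 6.6e-07) and by 2.69 ± 0.24 at 20 weeks (limma, adjusted p = 1.5e-06). The 12 and 20 week levels of AIM-KO livers overlapped, at 97.8 ± 20.6 and 108.2 ± 23.5 (SD, n = 3 each). In WT livers the change at 12 weeks was -0.45 ± 0.24 and did not pass the test (adjusted p = 0.32), although the 12 week and chow arrays did not overlap. At 20 weeks Hsd3b2 fell in WT livers, by a log2 change of -1.5 ± 0.24 (limma, adjusted p = 0.00036). Adding the Xist state to the fit moved the AIM-KO change at 20 weeks to -2.80 (limma, adjusted p = 0.0049). That term is set by WT 20 weeks replicate 2 alone, against the other WT arrays at 20 weeks. It cannot separate Xist state from diet within AIM-KO. In the order of their mean levels, AIM-KO chow (751.3) came first, then WT chow (357.4), WT 12 weeks (263.9), WT 20 weeks (124.8), AIM-KO 20 weeks (108.2) and AIM-KO 12 weeks (97.8), and the last 3 groups overlapped.

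The 12 week diet effect on Hsd3b2 differed between AIM-KO and WT by -2.38 ± 0.34 on the log2 scale (limma, adjusted p = 0.02). It was the 1 gene called of 14694 in that comparison. The call held in 6 of 12 fits that left out 1 array. Over the 12 fits the difference ranged from -2.73 to -2.11 and the adjusted p from 0.00015 to 0.11. It ended without any 1 of the 3 WT chow arrays (adjusted p = 0.058, 0.081 and 0.088), without WT 12 weeks replicate 3 or AIM-KO 12 weeks replicate 1 or 2 (adjusted p = 0.11 each), without the variance trend (adjusted p = 0.22) and with only the groups compared in the fit (adjusted p = 0.068). The chow level enters this difference, since Hsd3b2 averaged 751.3 ± 297.0 in AIM-KO chow livers and 357.4 ± 9.44 in WT chow livers (SD, n = 3 each). The genotype change was 0.98 ± 0.24 on chow (limma, adjusted p = 0.27), and it passed the test when AIM-KO chow replicate 3 was left out (1.33, limma, adjusted p = 0.014). At 20 weeks the difference of the diet effects was -1.19 ± 0.34 (limma, adjusted p = 0.26).

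Hsd3b3, the dehydrogenase-isomerase whose promoter resembles that of Hsd3b5, was lower in AIM-KO than in WT livers at 12 weeks by its brightest probe set. In AIM-KO livers it read 544.8, 737.9 and 526.1 on chow, 215.2, 295.0 and 359.4 at 12 weeks, and 408.0, 410.4 and 430.2 at 20 weeks. The WT livers read 1078.3, 1181.2 and 1105.5 on chow, 627.6, 772.7 and 872.9 at 12 weeks, and 562.0, 694.5 and 303.6 at 20 weeks. On chow and at 12 weeks all AIM-KO arrays lay below all WT arrays, and at 20 weeks they lay within the WT range. In the order of their mean levels, WT chow (1121.7) came first, then WT 12 weeks (757.7), AIM-KO chow (602.9), WT 20 weeks (520.0), AIM-KO 20 weeks (416.2) and AIM-KO 12 weeks (289.9). WT 12 weeks and AIM-KO chow overlapped, as did WT 20 weeks with each of the AIM-KO groups.

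Against chow, Hsd3b3 fell by 1.06 ± 0.23 at 12 weeks in AIM-KO livers (limma, adjusted p = 0.0033), and its change at 20 weeks was -0.51 ± 0.23 (adjusted p = 0.21). In WT livers the change was -0.58 ± 0.23 at 12 weeks (limma, adjusted p = 0.16) and -1.18 ± 0.23 at 20 weeks, a fall that passed the test (limma, adjusted p = 0.0019). With only the groups compared in the fit, the WT change at 12 weeks passed the test (limma, adjusted p = 0.04). The Xist term moved the AIM-KO change at 20 weeks to -1.26 (limma, adjusted p = 0.1). That term rests on WT 20 weeks replicate 2, which read 694.5, against 562.0 and 303.6 on the other WT arrays at 20 weeks. It cannot separate Xist state from diet within AIM-KO. No difference between the genotypes' diet effects passed the test, with -0.49 ± 0.33 at 12 weeks and 0.67 ± 0.33 at 20 weeks (limma, adjusted p = 0.69 and 0.5).

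At 12 weeks of HFD the brightest probe sets of Hsd3b2 and Hsd3b3 read lower in AIM-KO than in WT livers. Another probe set that names Hsd3b3 alone was also lower, without passing the test (-1.31 ± 0.40, limma, adjusted p = 0.38). Hsd3b2 averaged 97.8 ± 20.6 in AIM-KO and 263.9 ± 53.0 in WT livers, and Hsd3b3 averaged 289.9 ± 72.2 in AIM-KO and 757.7 ± 123.3 in WT livers (SD, n = 3 each). The log2 change was -1.40 ± 0.24 for Hsd3b2 (limma, adjusted p = 0.035) and -1.39 ± 0.23 for Hsd3b3 (limma, adjusted p = 0.028). By p-value they ranked 6 and 5 among all genes of this comparison. Both calls ended in 4 of 6 fits with 1 array fewer, namely those without WT replicate 2 or 3 or AIM-KO replicate 1 or 2. In the 6 fits the change stayed between -1.56 and -1.26 for Hsd3b2 (adjusted p = 0.0085 to 0.3) and between -1.56 and -1.2 for Hsd3b3 (adjusted p = 0.0081 to 0.3). On chow the Hsd3b3 change was -0.91 ± 0.23 (limma, adjusted p = 0.29), and at 20 weeks the change was -0.21 ± 0.24 for Hsd3b2 and -0.24 ± 0.23 for Hsd3b3 (limma, adjusted p = 0.76 and 0.71).

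Other liver cells and RNA quality were compared beside these genotype differences at 12 weeks. The summed intensity of 11 hepatocyte markers was 52996.4 to 57924.9 in AIM-KO and 57339.2 to 70577.6 in WT livers, and none of the 11 was called between the genotypes at 12 weeks or in the difference of diet effects (limma, with 4 and 2 at an unadjusted p under 0.05). No hepatocyte marker was under the array's 40th percentile on all 18 arrays. Recruited macrophage markers (8 of 9 on the array) summed to 1108.7 to 1591.4 in AIM-KO and 482.4 to 1133.7 in WT livers, and the 8 stellate cell and fibroblast markers to 1276.4 to 1697.0 in AIM-KO and 926.2 to 1488.9 in WT livers. Of both lists none was called between the genotypes at 12 weeks (limma, with 5 and 1 at an unadjusted p under 0.05). The ratio of the 3' to the 5' actin control probe sets, which grows as RNA degrades, was 2.50 to 3.06 in AIM-KO and 2.52 to 3.79 in WT livers. With a term for it the change was -1.38 for Hsd3b2 (limma, adjusted p = 0.074) and -1.45 for Hsd3b3 (limma, adjusted p = 0.024). In bulk liver, fewer hepatocytes and less RNA per hepatocyte cannot be told apart, and the part of cell makeup in these results was not tested.

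The same markers moved with the diet, beside the falls of Hsd3b2 and Hsd3b3. In AIM-KO livers at 12 weeks, 8 of 11 hepatocyte markers fell (median log2 change -0.40), while 7 of 8 recruited macrophage markers and 7 of 8 stellate cell and fibroblast markers rose (medians 1.88 and 1.33), where 18.1% of all genes were called. At 20 weeks these counts in AIM-KO livers were 0, 1 and 5 (limma, with 3 of the hepatocyte markers at an unadjusted p under 0.05). In WT livers 1 hepatocyte marker fell and 3 markers of each other list rose at 12 weeks, and 3 fell while 7 and 6 rose at 20 weeks. Of all genes, 6.96% were called at 20 weeks in AIM-KO livers, and 5.14% at 12 weeks and 14.5% at 20 weeks in WT livers. The part of these markers in the falls was not tested. The actin ratio was 2.54 to 4.22 in WT livers at 20 weeks and 2.53 to 2.75 on WT chow. With a term for it the WT change at 20 weeks was -1.03 for Hsd3b3 and -1.56 for Hsd3b2 (limma, adjusted p = 0.016 and 0.0016). Without WT 20 weeks replicate 3, where the ratio was 4.22, these changes were -0.84 and -1.40 (limma, adjusted p = 0.0085 and 0.0029).

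**Figure D2:**
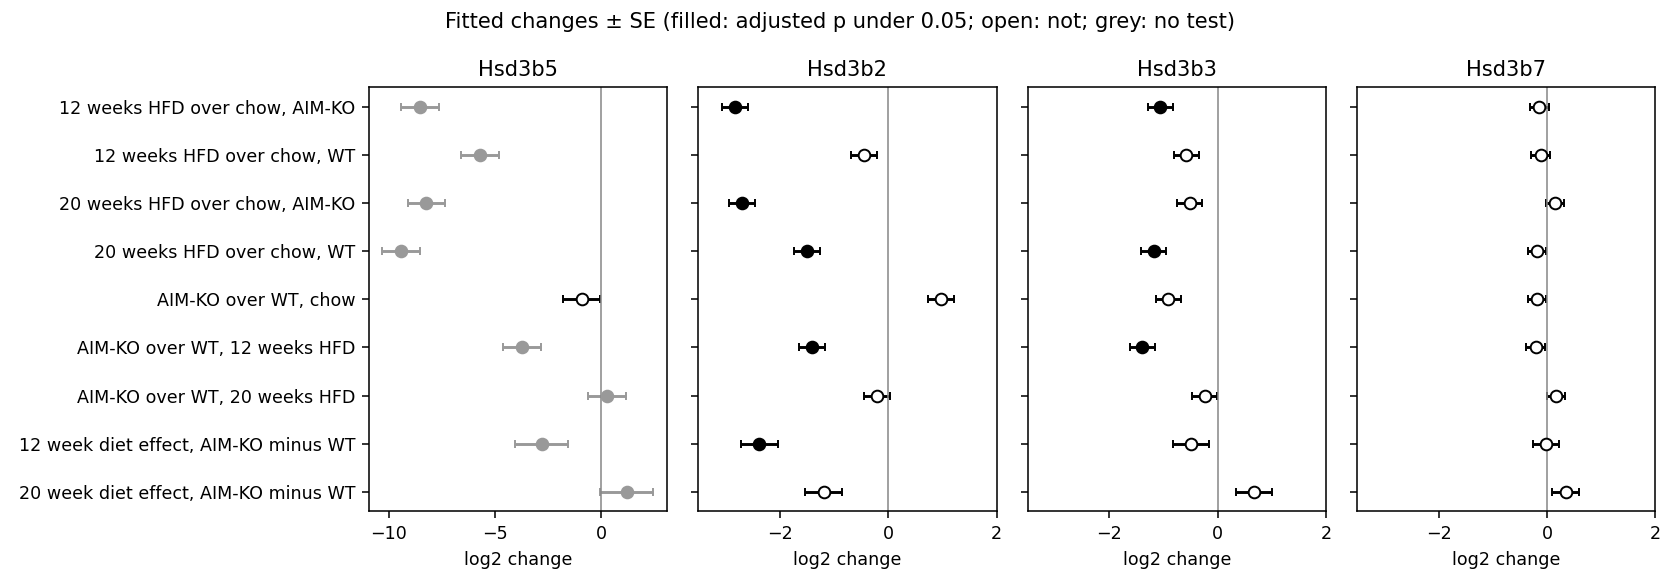
Fitted log2 change ± SE (x axis) of 4 Hsd3b genes in 9 comparisons, with n = 3 arrays a group; filled points passed an adjusted p of 0.05 (limma), open ones did not, and grey points (Hsd3b5 wherever HFD enters) have no test. The Hsd3b5 axis is wider than the others. Hsd3b2 passed in 5 comparisons, including the difference of the 12 week diet effect at -2.38, while the Hsd3b7 changes lie between -0.21 and 0.34.

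Hsd3b7, the member of bile acid synthesis, was bright in every group, and no change of it passed the test. In AIM-KO livers it read 3078.9, 3897.1 and 2400.8 on chow, 2856.3, 2846.3 and 2641.9 at 12 weeks, and 4271.3, 3160.7 and 2946.3 at 20 weeks. The WT livers read 4225.6, 3456.6 and 2903.4 on chow, 3051.1, 3654.6 and 2983.2 at 12 weeks, and 3078.4, 3355.7 and 2783.9 at 20 weeks. The groups overlapped in each comparison but that between the genotypes at 12 weeks. The log2 changes ranged from -0.21 to 0.34 with an SE of 0.17 for comparisons of 2 groups and 0.24 for differences of diet effects, and none passed the test (limma, adjusted p = 0.53 to 0.99). This does not show that Hsd3b7 was the same in all groups.

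A second probe set names Hsd3b3 alone. It read 111.2, 125.9 and 111.5 in AIM-KO livers at 12 weeks, against 232.0, 310.2 and 348.7 in WT livers. Its genotype change there was -1.31 ± 0.40, which did not pass the test in a fit of all kept probe sets (limma, adjusted p = 0.38). On chow it read 429.6, 479.0 and 114.4 in AIM-KO and 358.9, 770.1 and 796.0 in WT livers. Its fall from chow at 12 weeks in AIM-KO livers (-1.29 ± 0.40, limma, adjusted p = 0.04) and at 20 weeks in WT livers (-1.59 ± 0.40, limma, adjusted p = 0.015) passed. The brightest Hsd3b3 probe set is of a class that can bind related transcripts, so its assignment to Hsd3b3 alone is uncertain.

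Hsd3b6 was read only by a probe set shared with Hsd3b2 and Hsd3b3, and its values belong to no single gene. That probe set read 260.0, 277.5 and 371.5 at 12 weeks in AIM-KO livers, against 596.6, 617.9 and 768.3 in WT livers, with no overlap (-1.13 ± 0.25, limma, adjusted p = 0.16). On chow it read 662.9, 830.5 and 508.4 in AIM-KO and 1058.0, 874.1 and 965.1 in WT livers. It fell by 1.12 ± 0.25 from chow at 12 weeks in AIM-KO livers (limma, adjusted p = 0.0051) and by 1.26 ± 0.25 at 20 weeks in WT livers (limma, adjusted p = 0.0027). Hsd3b4, the other ketosteroid reductase, shares its probe set with Gm4450 and Gm10681. It read 0.4 to 20.9 and was above the array's 40th percentile on 4 arrays, all of them on chow. It passed the filter through chow alone and was under the 40th percentile on every HFD array, so no test of it is given. The Hsd3b1 probe set read 1.2 to 10.3 and was above the 40th percentile on 1 array, a WT array at 20 weeks.

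**Figure D3:**
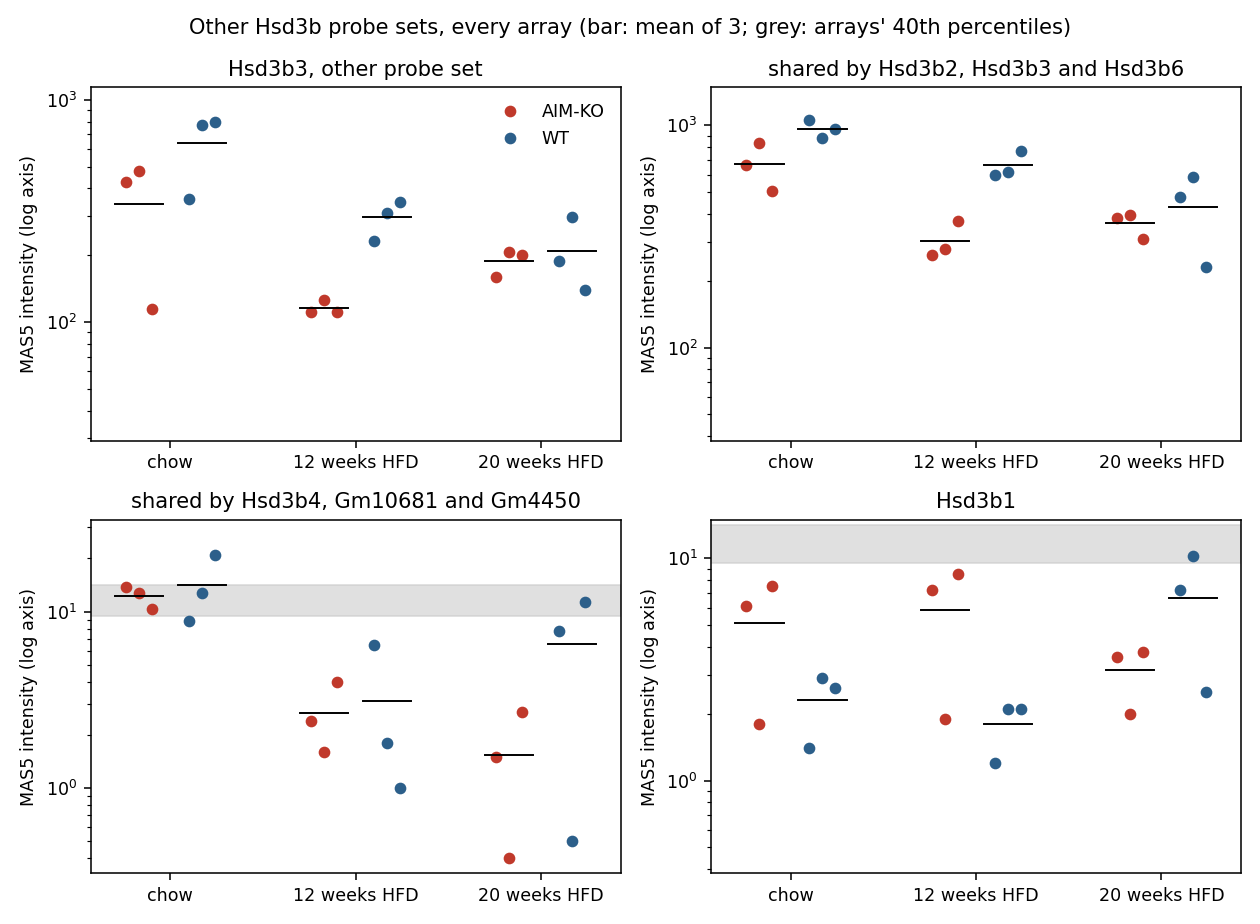
MAS5 intensity (log axis, arbitrary units) of the second Hsd3b3 probe set, of the probe sets shared by several genes and of Hsd3b1 on each array by diet, with AIM-KO in red and WT in blue, 3 arrays a group, and a bar at the group mean. The grey band spans the 40th percentiles of the arrays (9.5 to 14.2); Hsd3b1 and the Hsd3b4 probe set lie at or under it on nearly all arrays, while the other probe sets lie at 111.2 or more.

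Counts of members were set beside the share of all genes called. Hsd3b5 is left out of these counts. In AIM-KO livers 2 of 3 members (Hsd3b2 and Hsd3b3) were called at 12 weeks, where 18.1% of genes were called, and 1 of 3 at 20 weeks, where 6.96% were. In WT livers 0 of 3 were called by limma at 12 weeks (1 at an unadjusted p under 0.05), where 5.14% of genes were called, and 2 of 3 at 20 weeks, where 14.5% were. Between the genotypes 0 of 3 were called by limma on chow (2 at an unadjusted p under 0.05), where 0.0272% of genes were called. The count was 2 of 3 at 12 weeks, where 0.0749% of genes were called, and 0 of 3 at 20 weeks (0 at an unadjusted p under 0.05), where 0.157% were. For the difference of diet effects it was 1 of 3 at 12 weeks, where 0.00681% of genes were called, and 0 of 3 at 20 weeks (1 at an unadjusted p under 0.05), where 0.0% were. All called members were lower. The median log2 change of the 3 members at 12 weeks was -1.39 between the genotypes, against 0.01 over all genes.

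The genes whose pattern over the 18 arrays was most like that of Hsd3b5 included 4 of the male-biased liver genes listed here, Ugt2b38, Clec2h, Egfr and C8b, among the first 8. Ugt2b38, a glucuronosyltransferase, and Clec2h, a C-type lectin, each had a Pearson correlation of 0.97 with it, and Adh6-ps1, Egfr, Slc22a30, Cyp1a2, C8b and Ugt2b1 had 0.96. Hsd3b2 correlated with Hsd3b5 at 0.89, Hsd3b3 at 0.73 and Hsd3b7 at 0.26. Hsd3b2 was most like Tpst1 and Cyp7b1, the oxysterol hydroxylase (both 0.93), Aox3 (0.92), Ugt2b1 (0.91) and Adh5 (0.90). Hsd3b3 was most like Tshz1 (0.88), Scnm1 (0.84), Mtarc1 (0.82), and Gm4951 and Rhobtb3 (both 0.81). Hsd3b7 was most like Psen2 (0.85), Bco2 and Slc19a2 (both 0.81), and Pde9a and Aldh5a1 (both 0.77). The arrays share their groups, and with the group means removed the correlation of Hsd3b2 with Hsd3b5 was 0.40 and that of Ugt2b38 with Hsd3b5 was 0.73. Hsd3b2 then correlated more with Hsd3b7 (0.63) and Hsd3b3 (0.57) than with Hsd3b5. Hsd3b5 was above the 40th percentile on 8 of the 18 arrays, and values under it have no order. Its correlations therefore rest in part on floor values and on the diet response that chose the family.

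Other liver genes of known sex bias moved with the diet in both genotypes, from lists of 19 male-biased and 17 female-biased genes without the Hsd3b members. Here and in the lists that follow, the share of all genes called was 18.1% at 12 weeks and 6.96% at 20 weeks in AIM-KO livers, and 5.14% at 12 weeks and 14.5% at 20 weeks in WT livers. The median over all genes was 0.04 at both times in AIM-KO livers, and 0.00 at 12 weeks and -0.01 at 20 weeks in WT livers. Of 16 male-biased genes tested, 13 fell at 12 weeks and 16 at 20 weeks in AIM-KO livers, with median log2 changes of -1.83 and -3.07. In WT livers 6 fell at 12 weeks and 16 at 20 weeks, with medians of -1.30 and -2.67. Slco1a1, an uptake transporter of organic anions, read 18.8 ± 17.7 in AIM-KO livers at 20 weeks, against 2061.8 ± 534.8 on chow (-6.83 ± 0.97, limma, adjusted p = 0.00024). Clec2h read 6.57 ± 1.93 in AIM-KO livers at 20 weeks, against 521.9 ± 387.3 on chow (-5.42 ± 0.60, limma, adjusted p = 2.1e-05). Of 13 female-biased genes tested, 6 rose and 1 fell at 12 weeks and 11 rose at 20 weeks in AIM-KO livers, while 4 rose at 12 weeks and 8 at 20 weeks in WT livers. Their median log2 changes were 1.19 and 3.43 in AIM-KO livers and 1.02 and 2.37 in WT livers. Cyp2b9, a female-biased cytochrome P450, read 1561.7 ± 224.9 in AIM-KO livers at 12 weeks, against 24.0 ± 13.4 on chow (5.94 ± 0.70, limma, adjusted p = 1.6e-05). No array of the chow or 12 week groups was Xist-high, whereas all AIM-KO arrays at 20 weeks were. Between the genotypes, no gene of either list was called by limma on any diet; at 12 weeks 7 of the male-biased and 2 of the female-biased genes had an unadjusted p under 0.05.

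Among 25 tested genes of steroid hormone synthesis and breakdown, the diet moved members in both directions. In AIM-KO livers 5 rose and 7 fell at 12 weeks, and 2 rose and 5 fell at 20 weeks, with medians of 0.09 and -0.04. In WT livers 3 rose and 1 fell at 12 weeks, and 4 rose and 5 fell at 20 weeks, with medians of -0.04 and -0.13. Cyp17a1, the steroid 17-hydroxylase and a female-biased gene that stands on both lists, read 586.9 ± 312.7 in AIM-KO livers at 12 weeks, against 83.7 ± 61.4 on chow (2.86 ± 0.43, limma, adjusted p = 0.00017). In WT livers it read 442.2 ± 190.5 at 12 weeks, against 45.1 ± 9.9 on chow (3.14 ± 0.43, limma, adjusted p = 0.00023). Akr1c19 fell by 1.78 ± 0.25 in AIM-KO livers at 12 weeks (limma, adjusted p = 8.4e-05). Hsd11b1, which regenerates active glucocorticoid, fell by 1.02 ± 0.19 in AIM-KO livers at 12 weeks (limma, adjusted p = 0.0012) and its change was -1.21 ± 0.19 in WT livers at 20 weeks (limma, adjusted p = 0.00038). Hsd17b2, which oxidises estradiol and testosterone, fell by 1.55 ± 0.20 at 12 weeks in WT livers (limma, adjusted p = 0.00011).

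Of 17 genes of bile acid synthesis, the pathway of Hsd3b7, 1 rose and 7 fell in AIM-KO livers at 12 weeks, and 3 rose and 5 fell at 20 weeks, with median log2 changes of -0.33 and -0.13. In WT livers 1 rose and 1 fell at 12 weeks, and 1 rose and 7 fell at 20 weeks, with medians of -0.08 and -0.31. Cyp7b1, which makes substrates for Hsd3b7 and is also on the male-biased list, read 714.6 ± 87.3 in AIM-KO livers at 12 weeks, against 4611.2 ± 376.2 on chow (-2.69 ± 0.25, limma, adjusted p = 1.9e-06). The WT livers read 1536.1 ± 595.5 at 12 weeks, against 3493.8 ± 610.7 on chow (-1.26 ± 0.25, limma, adjusted p = 0.0057). The difference of these Cyp7b1 effects, -1.43 ± 0.36, did not pass the test (limma, adjusted p = 0.29). Cyp27a1, the sterol 27-hydroxylase, fell by 0.90 ± 0.17 in AIM-KO livers at 12 weeks (limma, adjusted p = 0.00095). Among the rises, Cyp39a1 rose by 1.65 ± 0.29 and Cyp8b1 by 1.28 ± 0.35 in AIM-KO livers at 20 weeks (limma, adjusted p = 0.0017 and 0.033). In WT livers Hsd17b4 rose by 0.51 ± 0.12 at 12 weeks and Ch25h by 1.24 ± 0.35 at 20 weeks (limma, adjusted p = 0.021 and 0.02).

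Of 16 growth hormone signalling genes tested, 2 rose and 4 fell in AIM-KO livers at 12 weeks and 2 rose and 2 fell at 20 weeks, while 2 fell at 12 weeks and 1 rose and 6 fell at 20 weeks in WT livers. Their median log2 changes were -0.46 and -0.29 in AIM-KO livers and -0.29 and -0.51 in WT livers. Ghr, the growth hormone receptor, read 3842.3 ± 188.7 in AIM-KO livers at 12 weeks, against 5877.4 ± 463.1 on chow (-0.61 ± 0.11, limma, adjusted p = 0.00097). Igfals, which stabilises circulating insulin-like growth factors, fell by 1.17 ± 0.30 in AIM-KO livers and by 1.07 ± 0.30 in WT livers at 12 weeks (limma, adjusted p = 0.011 and 0.047). Cish, a feedback target of STAT5, fell by 1.79 ± 0.47 in WT livers at 20 weeks (limma, adjusted p = 0.015). Stat5a itself rose in AIM-KO livers, by 0.89 ± 0.16 at 12 weeks and 0.95 ± 0.16 at 20 weeks (limma, adjusted p = 0.00092 and 0.0014). Igfbp3 rose by 0.85 ± 0.28 and 1.02 ± 0.28 at these times in AIM-KO livers (limma, adjusted p = 0.039 and 0.032). In WT livers at 20 weeks Igfbp3 rose by 1.14 ± 0.28 (limma, adjusted p = 0.009). Of 10 glucocorticoid, androgen and related receptor genes tested, 1 was called in the diet comparisons, the bile acid receptor Nr1h4 in WT livers at 20 weeks (-0.36 ± 0.12, limma, adjusted p = 0.043). The medians of these receptor genes were -0.20 and 0.21 in AIM-KO livers and -0.13 and -0.22 in WT livers at 12 and 20 weeks.

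Adrenal, gonadal and kidney tissue also express Hsd3b genes, and their markers were read on the same arrays. Of 8 adrenal and gonadal markers on the array, Mc2r, the corticotropin receptor, was under the 40th percentile on every array. Nr5a1 was above it on 1 array, Cyp11b1 on 3, Cyp11b2 on 4, Cyp11a1 on 15, Star on 16, and Cyp21a1 and Fdx1 on all 18. Star, Cyp11a1 and Cyp21a1 read at most 52.4, 31.0 and 44.9. Fdx1, an electron carrier of many mitochondrial cytochromes P450, made up most of the summed level of 2028.9 to 2270.7 in AIM-KO livers and 2181.1 to 2588.9 in WT livers at 12 weeks. On chow that sum was 3261.5 to 3653.0 in AIM-KO and 2376.5 to 2888.9 in WT livers. The 6 kidney tubule markers summed to 69.7 to 76.8 in AIM-KO and 72.9 to 81.0 in WT livers on chow, and to 70.3 to 78.2 in AIM-KO and 52.2 to 94.7 in WT livers at 12 weeks. Umod and Slc12a1 were each above the 40th percentile on 1 array, Slc34a1 on 11, Aqp2 on 12, and Lrp2 and Kap on all 18.

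The position of the family on the chromosome was examined because Cd5l lies on the same one. RefSeq lists 525 genes between Cd5l and the Hsd3b cluster, of which 203 were tested. On chow, 4 genes were called between the genotypes, and all 4 lie on chromosome 3, which holds 4.97% of the tested genes. In gene order they are Asic5, Cd5l, Selenbp1 and Papss1, and the Hsd3b cluster lies between Selenbp1 and Papss1. At 12 weeks 4 of 11 called genes lie on chromosome 3, namely Asic5, Cd5l, Hsd3b2 and Hsd3b3. At 20 weeks 3 of 23 do, namely Setd7, Asic5 and Cd5l. Asic5 was higher in AIM-KO livers by 3.25 ± 0.22 on chow (limma, adjusted p = 1.2e-07), where Papss1 changed by -1.38 ± 0.14 (limma, adjusted p = 5.1e-05) and Selenbp1 by -0.63 ± 0.10 (limma, adjusted p = 0.017). Whether the AIM-KO mice carry other DNA around Cd5l was not tested.

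Of the 20 nearest tested genes, 10 on each side, none was called by limma between the genotypes on any diet. Of all genes, 0.0272% were called on chow, 0.0749% at 12 weeks and 0.157% at 20 weeks, so none among 20 is near that share. On chow, at 12 weeks and at 20 weeks, 0, 2 and 6 of the 20 had an unadjusted p under 0.05 (limma). Over all 14694 genes these counts were 1064, 1231 and 1966. Hao2, a peroxisomal hydroxyacid oxidase and a female-biased gene, lies next to Hsd3b1 and moved the other way with the diet. In AIM-KO livers it read 1.5, 5.0 and 16.1 on chow (lowest, middle and highest array), 75.7, 107.0 and 122.2 at 12 weeks, and 1059.6, 1172.0 and 1178.2 at 20 weeks. In WT livers it read 4.4, 4.7 and 5.6 on chow, 18.7, 23.9 and 87.6 at 12 weeks, and 49.4, 98.0 and 587.8 at 20 weeks. Its change was 3.49 ± 0.65 at 12 weeks and 6.95 ± 0.65 at 20 weeks in AIM-KO livers (limma, adjusted p = 0.0011 and 2.9e-06) and 4.16 ± 0.65 at 20 weeks in WT livers (limma, adjusted p = 0.00031). In WT livers at 12 weeks it was 2.21 ± 0.65, which did not pass the test (limma, adjusted p = 0.057). All AIM-KO arrays at 20 weeks and WT 20 weeks replicate 2 were Xist-high, and no chow or 12 week array was. Diet and Xist state therefore cannot be told apart in the AIM-KO change of Hao2 at 20 weeks.

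**Figure D4:**
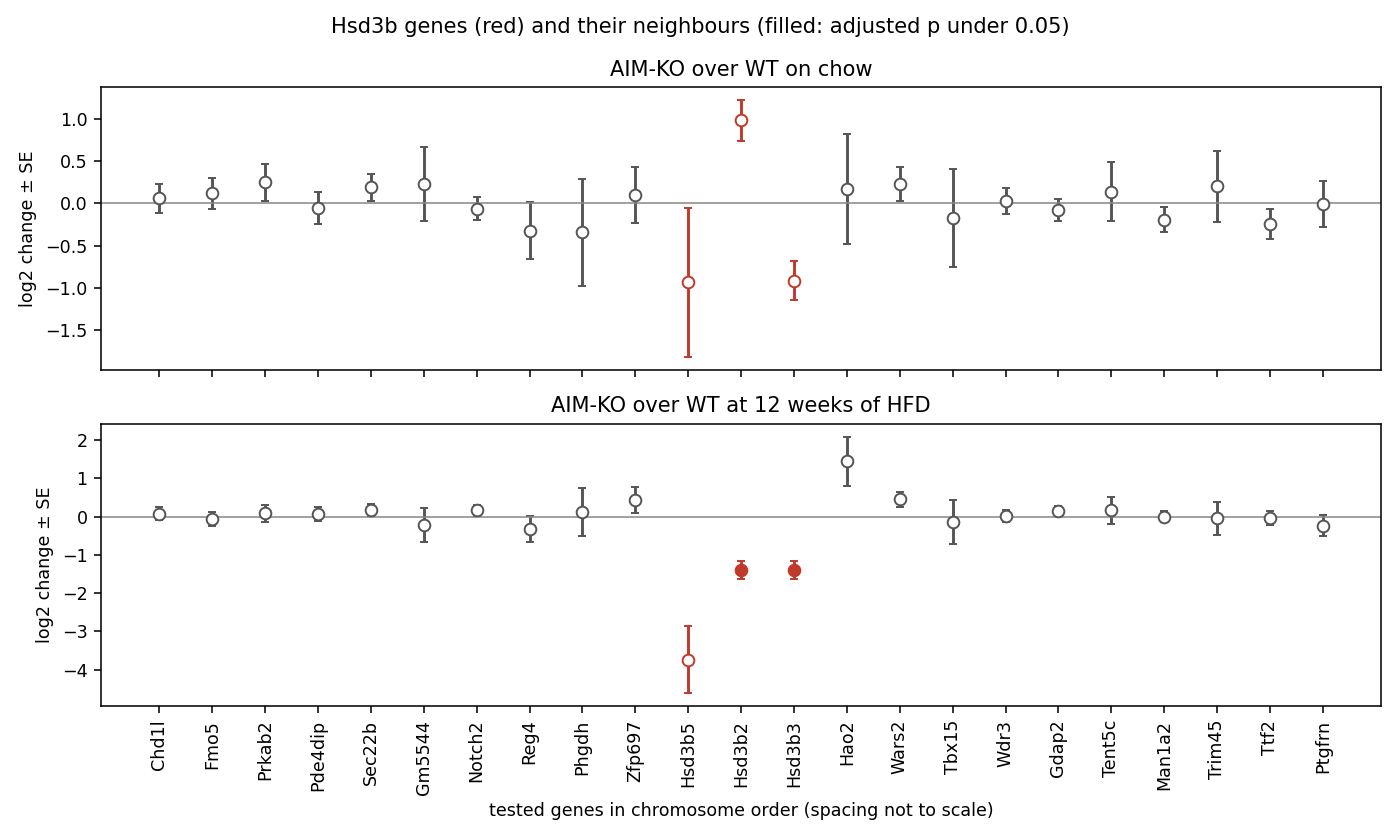
Log2 change ± SE of AIM-KO over WT livers on chow (upper panel) and at 12 weeks of HFD (lower panel) for the 3 tested Hsd3b genes of the chromosome 3 cluster (red) and the 10 nearest tested genes on each side (grey), in gene order, with n = 3 arrays a group. Filled points passed an adjusted p of 0.05 (limma); at 12 weeks these are Hsd3b2 at -1.40 and Hsd3b3 at -1.39, while Hao2 lies at 1.44. The Hsd3b5 point at 12 weeks has no test.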

How the data were processed

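Liver RNA of 18 samples was measured on Affymetrix mouse arrays. The deposited values are probe set intensities on a linear scale, made by the authors with MAS5, per the submitters' processing notes. No MAS5 version is stated in the sources used here. Of 45101 probe sets, those with 1 gene in the platform annotation were named. Values were taken as log2(intensity + 3.3), the pseudocount being the 20th percentile of all intensities, so changes of dim genes are understated. A probe set was kept if 3 or more arrays read it above their 40th percentile, and the brightest probe set stood for each gene. The 14694 genes were tested with limma 3.58.1 in R 4.3.3 on 6 group means, with a variance trend and 2-sided tests, in 9 comparisons. P-values were adjusted by Benjamini-Hochberg over all genes, and an adjusted p under 0.05 is a call. The few arrays limit precision. The median SE of 3 against 3 arrays was 0.22. The procedure was tested on simulated data.

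The members, the gene lists and the tests were chosen with earlier results of these data known, so adjusted p-values of members are no independent support. Named genes are the members, the checks of genotype, sex and RNA, up to 4 called genes of a list with the largest change (the smallest p where none was called), genes next to the cluster, and the genes most like a member (8 for Hsd3b5 and 5 for each other). Asic5, Papss1, Selenbp1 and Setd7 were named after their values were seen. Promoter windows were compared by alignment with free end gaps in Biopython 1.88, and RefSeq served for gene order. Probe sets with several genes were tested in an added fit of all 32643 kept probe sets, chosen after seeing the data. Replicate numbers were not taken as pairs in the main fit. Of 45 same-numbered pairs of arrays, 4 correlated above 0.1 (range -0.125 to 0.199), each of them with an array at 20 weeks. Arrays of unlike number were not compared, so whether arrays of the same number share processing was not tested. Alternatives changed the pseudocount, normalization, filter, probe set, variance trend, samples fitted, replicate block, and terms for Xist and the actin ratio, and left out each array in turn. Hsd3b5 was taken out of the genotype counts of members after the data were seen, because its values on HFD chose the family; with all arrays it was called in none of them.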

Additional observations from a re-analysis of the deposited data

Results flagged for a closer look

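The 12 week diet effect on Hsd3b2 stood out because it differed between the genotypes by the test of the difference itself. The difference, AIM-KO minus WT, was -2.38 ± 0.34 on the log2 scale (limma, adjusted p = 0.02). In AIM-KO livers the change from chow was -2.83 ± 0.24, and in WT livers it was -0.45 ± 0.24. It was called in 6 of 12 fits that left out 1 array.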

How the results depend on the processing

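Counts of called members at 12 weeks between AIM-KO and WT depended on the setting. The counts between the genotypes here include Hsd3b5. The count of 2 became 1 with the mean of the probe sets, with the actin term or with another Hsd3b3 probe set, and 0 without the variance trend or with only the groups compared. Without 1 array it ranged from 0 to 3. For the genotypes' difference in diet effect at 12 weeks the count of 1 became 0 without the variance trend or with only the groups compared, and ranged from 0 to 2 without 1 array. On chow the count between the genotypes was 0 to 1 without 1 array. In WT livers at 12 weeks against chow it was 1 with only the groups compared. Leaving Hsd3b5 out, the ranges without 1 array were 0 to 2 at 12 weeks between the genotypes and 0 to 1 for the 12 week difference. Causes were not tested. The replicate block changed no count of members and left the Hsd3b2 difference at 12 weeks at -2.38 (limma, adjusted p = 0.024). Counts of members against chow were otherwise 0 and 2 in WT livers and 2 and 1 in AIM-KO livers, also without any 1 array, and no value changed sign past its threshold. Counts over all genes moved more. Against chow in AIM-KO livers, 2666 genes were called at 12 weeks (2208 to 4061 over the other settings and 1710 to 2350 without 1 array) and 1022 at 20 weeks (197 with the Xist term to 1593, and 542 to 1011 without 1 array). In WT livers, 756 were called at 12 weeks (542 to 1029, and 335 to 743 without 1 array) and 2129 at 20 weeks (1373 to 3232, and 1406 to 2463 without 1 array). Between the genotypes, the 4 called on chow became 3 to 7 both ways, and the 11 at 12 weeks became 3 to 19, with 104 without WT 12 weeks replicate 1 and 3 to 7 without another array. The 23 at 20 weeks became 2 to 63 (the highest with the replicate block), with 948 without WT 20 weeks replicate 2 and 2 to 7 without another array. The 12 week difference called 1 gene, and 0 to 3 over the settings, with 23 without WT 12 weeks replicate 1. The 20 week difference called 0, and 0 to 5 over the settings, with 331 without WT 20 weeks replicate 2. Hsd3b5 values near the floor limit its changes.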
